A study of Homo sapiens with 24 samples.

Results

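Interferon response genes were followed in HSJD-DIPG-007 cells, a diffuse midline glioma line grown as spheroids, with and without LLY-283, an inhibitor of the arginine methyltransferase PRMT5. The list held 42 genes, chosen by symbol as interferon-stimulated genes, their transcription factors and sensors of nucleic acid in the cytosol, and each of the 42 was found as 1 identifier among the 58676 gene identifiers of the count file. All cells carried the genotype labelled H3F3A K27M, ACVR1 R206H and PIK3CA MIS. The 24 libraries were 12 from vehicle (DMSO) cultures and 12 from cultures given LLY-283 at its GI40, the concentration that inhibits growth by 40%, with a further dose of either at the medium change after 5 days. For either treatment, days 0 and 5 were covered by 3 libraries, day 7 by 2 and each of days 1, 2, 3 and 10 by 1. All come from a single cell line, and the study calls its repeats technical, so the p-values below measure the spread between such repeats and not between independent cultures.

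Interferons are secreted proteins that bind paired receptors at the cell surface, where the kinases JAK1 and TYK2 activate STAT proteins such as STAT2. With IRF9, the subunit that binds DNA, STAT2 acts in the complex ISGF3, which switches on interferon-stimulated genes through a sequence called the interferon-stimulated response element. Many of the products sense foreign nucleic acid, block translation or hold back viruses at membranes, and several, STAT2 and IRF9 among them, are themselves part of the pathway that induces them.

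The core of that element was searched for as GAAA, any 2 bases and GAAA again, or TTTC, any 2 bases and TTTC for the other strand, in 250 bases before to 50 bases after the start site, in RefSeq promoters on GRCh38.p14. Of the 42 genes, 32 had a promoter in the table and 21 of these held a match, a share of 65.6%, while 4.38% of 27305 genes in the table did. The 10 genes without a promoter in the table were IFIT2, IFITM2, MX2, OAS2, OASL, IRF7, DHX58, USP18, CGAS and STING1. A match is a run of letters and was not tested as a binding site. The promoters below belong to genes called in 3 or more of the 7 comparisons described here (IFIT1, STAT2 and TRIM25; IFIT2 was not in the table) and to 2 genes whose reads may be shared with a paralog (IFITM1 and IFITM3). Each runs 5′ to 3′ on the strand of its gene, and capitals mark the matches.
IFIT1 (chr10:89392373-89392672, plus strand): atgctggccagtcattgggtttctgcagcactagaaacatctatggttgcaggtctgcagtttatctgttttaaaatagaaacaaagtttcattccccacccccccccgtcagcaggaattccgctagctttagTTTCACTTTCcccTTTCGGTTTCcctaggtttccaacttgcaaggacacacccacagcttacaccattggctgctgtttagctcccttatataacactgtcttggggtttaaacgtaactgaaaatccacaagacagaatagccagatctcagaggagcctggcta
IFITM1 (chr11:313790-314089, plus strand): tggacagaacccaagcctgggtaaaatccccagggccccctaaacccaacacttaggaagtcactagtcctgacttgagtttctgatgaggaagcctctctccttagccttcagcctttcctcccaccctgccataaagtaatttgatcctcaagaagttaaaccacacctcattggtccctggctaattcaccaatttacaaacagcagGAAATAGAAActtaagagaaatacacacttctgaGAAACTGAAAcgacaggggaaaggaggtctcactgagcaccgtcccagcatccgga
IFITM3 (chr11:320811-321110, minus strand): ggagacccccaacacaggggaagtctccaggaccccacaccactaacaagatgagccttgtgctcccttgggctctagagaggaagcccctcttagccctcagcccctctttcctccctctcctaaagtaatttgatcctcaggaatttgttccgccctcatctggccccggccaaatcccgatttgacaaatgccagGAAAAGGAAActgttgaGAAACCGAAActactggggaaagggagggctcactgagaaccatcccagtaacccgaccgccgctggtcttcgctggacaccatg
STAT2 (chr12:56360058-56360357, minus strand): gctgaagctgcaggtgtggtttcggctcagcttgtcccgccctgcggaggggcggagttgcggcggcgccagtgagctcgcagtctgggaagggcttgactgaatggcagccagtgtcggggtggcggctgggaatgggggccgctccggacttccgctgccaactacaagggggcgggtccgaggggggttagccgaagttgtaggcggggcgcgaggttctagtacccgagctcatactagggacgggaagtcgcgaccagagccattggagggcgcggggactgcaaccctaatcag
TRIM25 (chr17:56914000-56914299, minus strand): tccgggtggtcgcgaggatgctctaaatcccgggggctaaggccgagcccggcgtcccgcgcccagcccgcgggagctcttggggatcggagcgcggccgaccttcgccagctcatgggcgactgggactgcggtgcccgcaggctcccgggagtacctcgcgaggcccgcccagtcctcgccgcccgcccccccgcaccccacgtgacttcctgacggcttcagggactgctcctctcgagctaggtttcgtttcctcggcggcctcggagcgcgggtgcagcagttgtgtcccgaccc
IFIT1, IFITM1 and IFITM3 each showed 2 matches, and the windows of STAT2 and TRIM25 had none. The matches of IFIT1 began at positions -116 and -103 from the start site, those of IFITM1 at -40 and -6 and those of IFITM3 at -52 and -35.

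The counts per library summed to between 13835205 and 23190369, with a median of 18688160.5. Levels are given as CPM, each count relative to the total of its library, scaled by the TMM method over the 24 libraries. Markers of glial progenitors summed to between 7363 and 9347 CPM, although SOX10 was at 11 counts or fewer. Markers of microglia or macrophages summed to 2.03 CPM at most, with C1QA, C1QB and TYROBP at 0 in all 24 libraries, and those of plasmacytoid dendritic cells or lymphocytes to 0.688 CPM at most. Endothelial markers, nearly all of it PECAM1, summed to between 4.47 and 9.61 CPM until day 7 and to 25.5 CPM for vehicle and 12.1 CPM for LLY-283 at day 10. The summed level of 10 fibroblast markers, of which glial cells also express several, was between 251 and 487 CPM. It reached 435 CPM in vehicle day 5 repeat 3 against 279 and 282 CPM in repeats 1 and 2, and 384 to 399 CPM in the LLY-283 libraries of that day. Different markers made up these sums. In vehicle day 5 repeat 3 COL1A2 and FN1 had 499 and 818 counts, against 15 to 63 and 13 to 44 in the LLY-283 libraries. There POSTN had 1372 to 1406 counts, against 317 to 398 in vehicle. COL1A2 and FN1 were also high in LLY-283 day 2 (313 and 504 counts) and vehicle day 7 repeat 1 (316 and 545). At day 7, the signs of the difference between treatments were opposite in repeats 1 and 2 for 22 of the 33 genes tested, so these libraries are named by label. The share of all genes with opposite signs was not computed. Whether the treatment labels of repeat 2 are exchanged cannot be told from these values, and each day 7 value, and each fit that shares these libraries, rests on the labels as given. In bulk RNA, fewer cells that express a gene cannot be told apart from less of its RNA per cell.

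The list held both well expressed genes and genes at the limit of detection. Levels are compared between genes only as CPM per kilobase of the canonical transcript. Over the 24 libraries the highest means were those of IFIT5, at 21.0 CPM per kilobase, IFIT2 at 20.2 and TRIM25, a ubiquitin ligase of the RNA sensor RIG-I, at 19.0. EIF2AK2, the kinase PKR that stops translation when it meets double-stranded RNA, followed at 12.9 CPM per kilobase, STING1, the adaptor of cytosolic DNA sensing, at 11.2 and IFI44 at 10.0. The lowest were OAS2, at 0.0151 CPM per kilobase, DHX58, a helicase related to RIG-I, at 0.0216, CMPK2 at 0.0304, OASL at 0.0308, RSAD2 at 0.0627 and XAF1 at 0.118. DHX58 and OAS2 had at most 3 counts in any library, which is the limit set here for a count that cannot be told from 0. Several genes that interferon induces strongly in other cells were low: OASL and CMPK2 had at most 6 counts, RSAD2 (viperin) at most 11, and ISG15, the ubiquitin-like modifier, 11 to 42 counts per library. At day 0 the order was another, with IFIT2 at 11.8 CPM per kilobase, below TRIM25 at 22.5, EIF2AK2 at 13.6 and IFI44 at 13.5. In the order of day 0 levels, only 8 of the 41 neighbouring pairs had ranges that did not overlap, so most neighbours in that order did not differ beyond their spread.

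**Figure D1:**
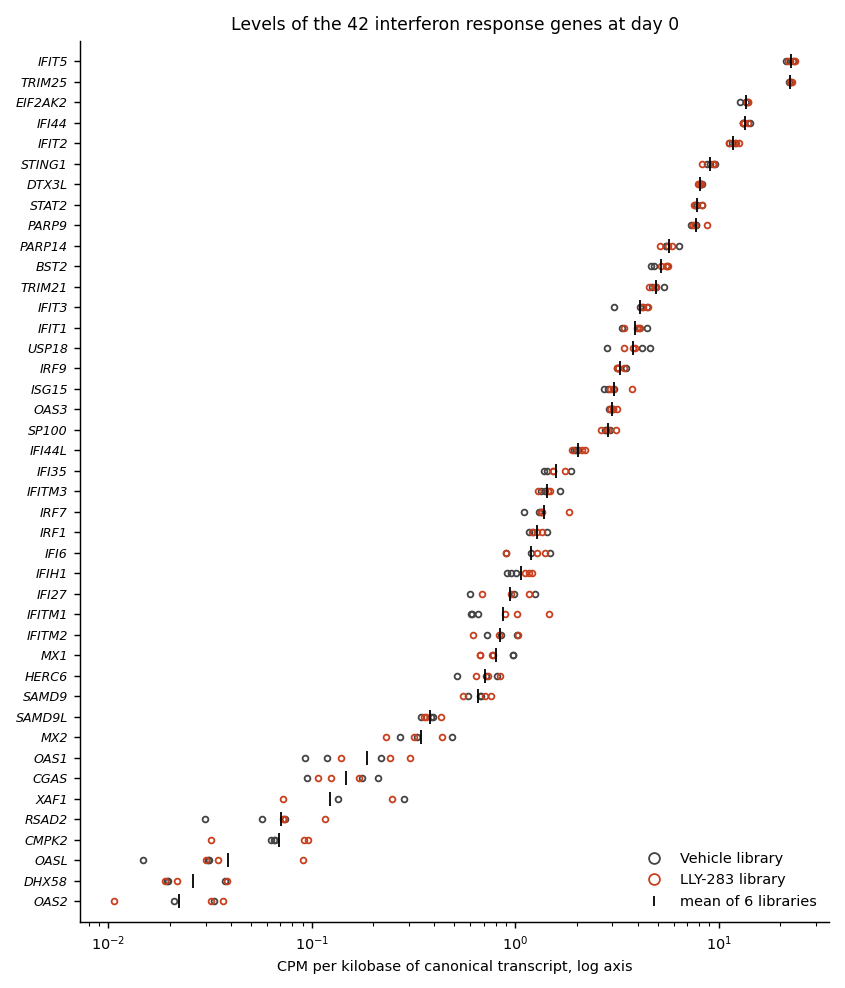
Level of each of the 42 genes in the 6 day 0 libraries, as CPM per kilobase of canonical transcript on a log axis (points: libraries, values of 0 not drawn; bars: mean). IFIT5 and TRIM25 lie at the top, with overlapping ranges, and OAS2 and DHX58 at the bottom.

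The 10 interferon genes looked at had at most 3 counts in any library, while subunits of the type I and type II receptors were expressed. Of 10 interferon genes, 8 had 0 counts in every library, among them IFNB1, IFNA1, IFNA2 and IFNG, and the other two, IFNK and IFNW1, reached 3 and 2 counts. A count of 0 in the smallest library allows up to 3 counts, and these limits cover counting error only. IFNAR1 and IFNAR2, the subunits of the type I receptor, lay between 57.4 and 76.2 CPM and between 22.1 and 32.5 CPM, and IFNGR2, a subunit of the type II receptor, between 43.3 and 64.2 CPM. IFNLR1, a subunit of the type III receptor, had 4 counts or fewer. The chemokines CXCL10 and CXCL11, which respond to interferon, had at most 2 counts.

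Of the 42 genes, 6 never passed the filter on low counts in any comparison (DHX58, OAS1, OAS2, OASL, RSAD2 and CMPK2). XAF1, CGAS and IFI27 passed it in some, and the other 33 in all 7.

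At day 5, a small group of genes, among them the ISGF3 subunits STAT2 and IRF9 and 3 IFIT genes, was higher with LLY-283. IFIT2, IRF9, IFIT1, STAT2, IFIT3, IFI44L and PARP14 were higher than in vehicle, by 0.17 to 0.61 on the log2 scale, while TRIM25 and IFIT5 were lower by less than 0.2. Of the 33 genes tested, 9 were called at an adjusted p under 0.01 by the quasi-likelihood test of edgeR, adjusted over 16491 genes by the Benjamini-Hochberg method, which is 27.3% of those tested and close to the 26.1% of all genes called. In the higher direction 7 genes were called, against 12% of all genes, and in the lower direction 2, against 14.1%. The treatments' libraries did not overlap for 8 genes in the higher direction (20.8% of all genes) and for 5 in the lower (25.6%). The median log2 fold change of the 33 was 0.12, beside 0.02 over all genes tested. The summed glial markers of day 5 lay between 8651 and 8944 CPM for vehicle and between 9101 and 9347 CPM for LLY-283. Of 9 glial markers tested, 5 were called higher and 2 lower. Of 9 fibroblast markers tested, 4 were called higher and 0 lower by edgeR, with a median log2 fold change of -0.14. These stand beside the same 12% and 14.1% of all genes. The part of these markers in the results was not tested. Leaving out vehicle day 5 repeat 1 left 5 calls, beside 19.2% of all genes. Leaving out vehicle day 5 repeat 3, the library with high fibroblast markers, also left 5, beside 20.8% of all genes. DESeq2 called 5, beside 20.01% of all genes, and these were IFIT1, IFIT2, STAT2, IRF9 and TRIM25.

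Of the 4 transcription factors, 2 were higher and 2 did not pass the test. STAT2 was at 25.8, 28.1 and 26.6 CPM in the vehicle libraries of day 5 and at 36.8, 36.5 and 39.3 CPM in the LLY-283 libraries. All 3 LLY-283 libraries lay above the vehicle ones, and the log2 fold change was 0.51 (SE 0.062, adjusted p = 1.8e-07 by edgeR). IRF9 was at 5.53, 4.80 and 5.69 CPM for vehicle and at 7.12, 8.41 and 8.05 CPM under LLY-283. The ranges did not overlap, and the log2 fold change was 0.59 (SE 0.133, adjusted p = 8.8e-04 by edgeR). IRF9 lies at chr14:24161234-24168043 and shares 92.9% of the 31-base words of its transcript with a readthrough gene (ENSG00000259529), so the split of reads between them is uncertain. That gene had 30 to 83 counts per library and IRF9 73 to 175. IRF1, whose exons overlap the antisense gene IRF1-AS1 over 2805 bases so that reads may fall to either, had a log2 fold change of 0.15 (adjusted p = 0.46) and IRF7, which drives interferon alpha genes, of -0.40 (adjusted p = 0.25).

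In the IFIT family, whose proteins bind foreign RNA and block its translation, all 4 genes were called, 3 higher and 1 lower. IFIT2 was at 73.2, 72.9 and 72.8 CPM for vehicle and at 116, 112 and 99.4 CPM under LLY-283. The vehicle libraries differed from each other by less than 1 CPM, the LLY-283 libraries all lay above them, and the log2 fold change was 0.61 (SE 0.047, adjusted p = 1.0e-10 by edgeR). IFIT1 was at 20.4, 20.9 and 22.2 CPM for vehicle and at 33.1, 30.5 and 28.7 CPM under LLY-283. Its groups were also separate, with a log2 fold change of 0.56 (SE 0.068, adjusted p = 1.9e-07 by edgeR). IFIT3, a partner of IFIT1, was at 8.14, 9.59 and 7.53 CPM for vehicle and at 13.1, 11.3 and 9.60 CPM under LLY-283. The lowest LLY-283 library barely exceeded the highest vehicle library, and the log2 fold change was 0.44 (SE 0.120, adjusted p = 0.0047 by edgeR). IFIT5 went the other way, from 98.5, 91.9 and 99.9 CPM in vehicle to 88.9, 85.9 and 80.1 CPM under LLY-283. The groups did not overlap, and the log2 fold change was -0.16 (SE 0.044, adjusted p = 0.0043 by edgeR). The 4 genes lie in a cluster on chromosome 10, where IFIT2 spans 89283694 to 89309271 and overlaps ENSG00000232110 over 524 bases. Reads of the overlap could fall to either gene. Of the 31-base words of the canonical IFIT2 transcript, 0% occur in transcripts of other genes.

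**Figure D2:**
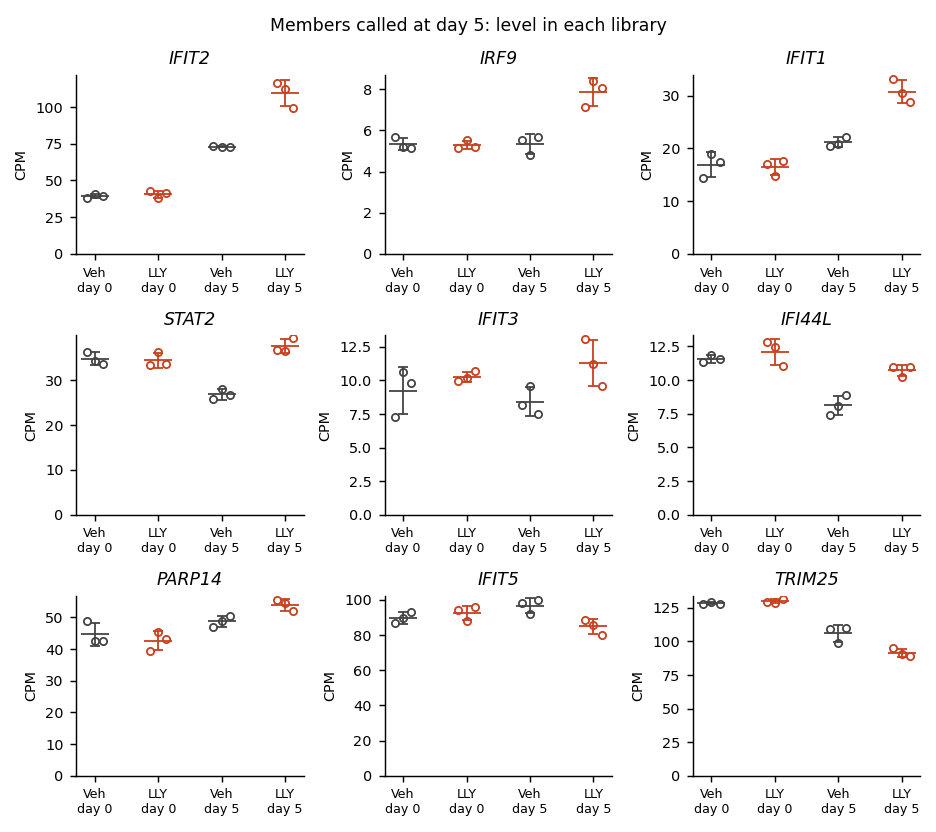
Level in CPM of the 9 genes called at day 5, in the 3 libraries of each treatment group at days 0 and 5 (circles: libraries; bars: mean and SD). IFIT2, IFIT1, STAT2 and IRF9 are higher in every LLY-283 library of day 5 than in every vehicle library of that day, with overlapping groups at day 0.

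Among the other genes, IFI44L was at 7.39, 8.08 and 8.86 CPM for vehicle and at 10.96, 10.3 and 10.9 CPM under LLY-283, a log2 fold change of 0.43 (SE 0.111, adjusted p = 0.0028 by edgeR). Its neighbour on chromosome 1, IFI44, had a log2 fold change of 0.17 (adjusted p = 0.17). PARP14, which attaches single ADP-ribose units to proteins, was at 47.02, 48.9 and 50.5 CPM for vehicle and 55.5, 54.5 and 51.9 CPM under LLY-283. The groups were separate by little, with a log2 fold change of 0.17 (SE 0.050, adjusted p = 0.0075 by edgeR). PARP9 and DTX3L, which act as a pair, overlap at their ends and lie near PARP14 on chromosome 3, had log2 fold changes of 0.08 and 0.04 and did not pass the test. Whether strand was used in counting is not stated, so reads from the overlap may fall to either. TRIM25 was at 109, 98.6 and 110.2 CPM for vehicle and at 94.9, 90.6 and 89.0 CPM under LLY-283. All 3 LLY-283 libraries were lower, with a log2 fold change of -0.19 (SE 0.044, adjusted p = 0.0012 by edgeR).

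The groups of sensors, membrane restriction factors and dynamin-like GTPases had no call at day 5. Of 9 sensors and adaptors, 4 were tested and 0 called by edgeR or DESeq2, with 0 at an unadjusted p under 0.05. EIF2AK2 was at 126 ± 1.84 CPM for vehicle and 122 ± 6.97 CPM under LLY-283 (SD, n = 3), and STING1 at 25.4 ± 2.23 and 24.6 ± 0.0924 CPM. Of the 4 membrane restriction factors, 0 were called by edgeR or DESeq2 and 1 had an unadjusted p under 0.05, IFITM2, at 3.35, 4.60 and 4.43 CPM for vehicle and 3.56, 2.26 and 2.20 CPM under LLY-283. Those groups overlapped, and the adjusted p was 0.020 by edgeR, for a log2 fold change of -0.61. MX1 and MX2, GTPases that trap viral particles, had adjusted p values of 0.72 and 0.44 by edgeR, and ISG15 of 0.87. The ISG15 protease USP18, which shares 62.3% of the 31-base words of its transcript with other genes, USP41 among them, so that the split of reads is uncertain, lay at 5.39 ± 0.736 CPM for vehicle and 4.53 ± 0.156 CPM under LLY-283 (SD, n = 3), without overlap but with an adjusted p of 0.28 by edgeR. SAMD9 also showed groups without overlap, at 1.33 to 1.51 CPM and 1.84 to 2.10 CPM, with an adjusted p of 0.14 by edgeR.

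IFIT1, IFIT2 and STAT2 were called at day 5 under each of 15 alternative settings, of which the threshold of 0.05 could lose no call. IRF9 was called under 14 of them and missed the threshold where all libraries of days 0 to 7 shared a fit (adjusted p = 0.012 by edgeR). The other 5 calls were lost under some settings. With every library kept, DESeq2 and the fit shared over days 0 to 7 each lost IFIT3, IFI44L, IFIT5 and PARP14, while both kept TRIM25. Single libraries also decided calls. IFIT3 lost its call without vehicle repeat 1 or 3 or LLY-283 repeat 1 or 2 (adjusted p = 0.018 to 0.048), IFI44L without vehicle repeat 1 or 2 or LLY-283 repeat 3 (0.011 to 0.032), and IFIT5 without vehicle repeat 1 or 3 or LLY-283 repeat 2 or 3 (0.011 to 0.045). PARP14 lost it without any 1 of the 6 libraries (0.010 to 0.089), and TRIM25 without vehicle repeat 3 (0.012). Without vehicle repeat 3 the log2 fold changes of IFIT2, IFIT1, STAT2 and IRF9 were 0.60, 0.59, 0.50 and 0.63.

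Of 74 other genes of the pathway, 51 were tested at day 5, of which 6 were higher, beside 12% of all genes, and 7 lower, beside 14.1%. The 25.5% called in all lay close to the 26.1% of all genes, so the count itself sets these genes apart from no others. The ligands could not be tested, and the 5 receptor genes tested did not pass the threshold. Among those called, TYK2, the kinase bound to IFNAR1, was at 116 ± 2.18 CPM in the vehicle libraries and 140 ± 4.95 CPM under LLY-283 (SD, n = 3), and its log2 fold change was 0.29 (adjusted p = 1.8e-06 by edgeR). IFI16, a sensor of DNA, was at 191 ± 6.47 and 234 ± 7.4 CPM (adjusted p = 9.9e-08 by edgeR), and STAT3 had a log2 fold change of 0.17. SOCS3, an inhibitor of cytokine signalling, had one of 0.55. RNASEH2C, a subunit of the ribonuclease that removes RNA from DNA, was lower with LLY-283, at 66.2 ± 2.3 and 51.4 ± 1.55 CPM (adjusted p = 1.8e-06 by edgeR), and IKBKE, a kinase upstream of interferon genes, had a log2 fold change of -0.45. The 74 genes include 31 other interferon-stimulated genes, of which 23 were tested. Of these, 2 were called higher and 4 lower, beside the same 12% and 14.1%, with a median log2 fold change of -0.006.

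At day 0 no tested gene of the list passed the threshold. Of 35 tested, 0 were called by edgeR, where 0.0169% of all 17780 genes were, 1 had an unadjusted p under 0.05 (IFITM1, adjusted p = 0.86) and DESeq2 called 0. The libraries did not overlap for 4 genes in the higher direction (IFITM1, IFIH1, EIF2AK2 and IRF7; 7.06% of all genes) and for 2 in the lower (MX1 and DTX3L; 4.85%). IFIT2 was at 39.4 ± 1.25 CPM for vehicle and 40.6 ± 2.44 CPM in the libraries labelled LLY-283 (SD, n = 3), and STAT2 at 34.8 ± 1.43 and 34.4 ± 1.69 CPM.

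Over 5 days in culture, genes of the list changed in both directions in either treatment group. The deposited columns of days 0 to 3 are numbered in a range apart from those of days 5, 7 and 10, for a reason not stated. Any difference between these sets of libraries cannot be told apart from change over time, in this and later paragraphs. In vehicle, the IFITM genes and IFIT2 rose between days 0 and 5, while SAMD9, SAMD9L, HERC6, IFI44 and OAS3 fell. Of 34 genes tested in vehicle, 15 were called, which is 44.1%, while 38.9% of 17106 genes were. The 6 that rose stand beside a background of 22.2% of all genes and the 9 that fell beside 16.7%. With LLY-283, 22 of 34 were called, 64.7% beside 42.4% of 17341 genes, 10 higher (22.9% of all genes) and 12 lower (19.5%). The vehicle day 5 libraries also enter the comparison of treatments at day 5, as the LLY-283 day 5 libraries do, so these results are not independent of each other. Day 0 and day 5 libraries did not overlap for 7 genes that were higher (31.1% of all genes) and 15 that were lower (26.1%) in vehicle, and for 11 (28.7%) and 17 (29%) with LLY-283. The summed fibroblast markers lay between 251 and 269 CPM at day 0 and between 279 and 435 CPM at day 5, and their part in these changes was not tested. The medians over the tested genes were -0.28 in vehicle and -0.14 with LLY-283 on the log2 scale, beside -0.02 and 0.01 over all genes.

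The largest changes in vehicle were those of IFITM1 and IFITM2. Products of the IFITM genes stop viruses from fusing with the cell's membranes. In vehicle, IFITM1 went from 0.402, 0.436 and 0.409 CPM to 2.11, 1.97 and 2.29 CPM, and IFITM2 from 0.855, 0.727 and 1.02 CPM to 3.35, 4.60 and 4.43 CPM. Each was low in every day 0 library and higher without overlap at day 5. The log2 fold changes were 2.32 for IFITM1 (SE 0.325, adjusted p = 9.4e-07 by edgeR), 2.23 for IFITM2 (SE 0.247, adjusted p = 1.6e-08) and 1.13 for IFITM3 (SE 0.297, adjusted p = 0.0023). With LLY-283 they were 1.67, 1.67 and 1.22. These are low counts, 3 to 114 for IFITM1 and 11 to 136 for IFITM2 over the 24 libraries. The genes lie side by side on chromosome 11, between 303655 and 329475, and share sequence: 59.4% of the 31-base words of the IFITM1 transcript, 46.8% of those of IFITM3 and 17.0% of those of IFITM2 also occur in transcripts of other genes, so the split of reads among them is uncertain. BST2 (tetherin), which holds budding virus at the surface, was at 5.00 ± 0.502 CPM at day 0 and 4.93 ± 0.24 CPM at day 5 in vehicle (SD, n = 3; adjusted p = 0.86 by edgeR).

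IFIT2 was at 38.2, 40.7 and 39.3 CPM in vehicle at day 0 and at 72.8 to 73.2 CPM at day 5. The groups were far apart, with a log2 fold change of 0.87 (SE 0.047, adjusted p = 6.6e-15 by edgeR), and it was 1.44 with LLY-283. IFIT1 rose by 0.30 in vehicle (adjusted p = 0.0046) and by 0.91 with LLY-283 (adjusted p = 8.7e-11 by edgeR). STING1 rose in both, from 19.9 ± 0.861 to 25.4 ± 2.23 CPM in vehicle and from 19.5 ± 1.44 to 24.6 ± 0.0924 CPM under LLY-283 (SD, n = 3).

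SAMD9 and SAMD9L, neighbours on chromosome 7 whose proteins restrain poxviruses and cell growth, fell in both treatment groups. SAMD9 was at 4.63, 3.97 and 4.55 CPM at day 0 and 1.49, 1.51 and 1.33 CPM at day 5 in vehicle, without overlap. Its log2 fold change was -1.61 in vehicle (adjusted p = 2.2e-07 by edgeR) and -1.17 with LLY-283, and that of SAMD9L was -1.45 and -0.98. HERC6, a ubiquitin ligase of the HERC family, had log2 fold changes of -1.31 and -0.83. IFI44 fell from 22.8 ± 0.995 to 12.9 ± 1.06 CPM in vehicle (SD, n = 3) and by 0.65 on the log2 scale with LLY-283. OAS3, which makes the oligoadenylates that activate RNase L, fell by 0.59 and 0.77, and TRIM25 by 0.29 and 0.49. IFI44L and SP100, a component of PML nuclear bodies, fell in vehicle, by 0.53 and 0.34, and had log2 fold changes of -0.15 (adjusted p = 0.17) and -0.26 (adjusted p = 0.013) with LLY-283. With LLY-283 the genes ISG15 (-1.05), IRF7 (-1.02), IFIH1 (-0.69), USP18 (-0.59), TRIM21 (-0.37) and EIF2AK2 (-0.17) also fell, and IRF9 (0.59), IRF1 (0.50), PARP14 (0.36) and DTX3L (0.18) rose. The 6 genes of this group that fell had negative log2 fold changes in vehicle too, from -0.81 for ISG15 to -0.09 for EIF2AK2, short of the threshold. The difference between the treatments was not called for any of them. For IRF9, IRF1, PARP14 and DTX3L, which rose, the difference between the treatment groups in this change was not called by the interaction test given below. IFIH1 (MDA5) is a sensor of long double-stranded RNA, and TRIM21 binds antibody-coated virus in the cytosol.

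**Figure D3:**
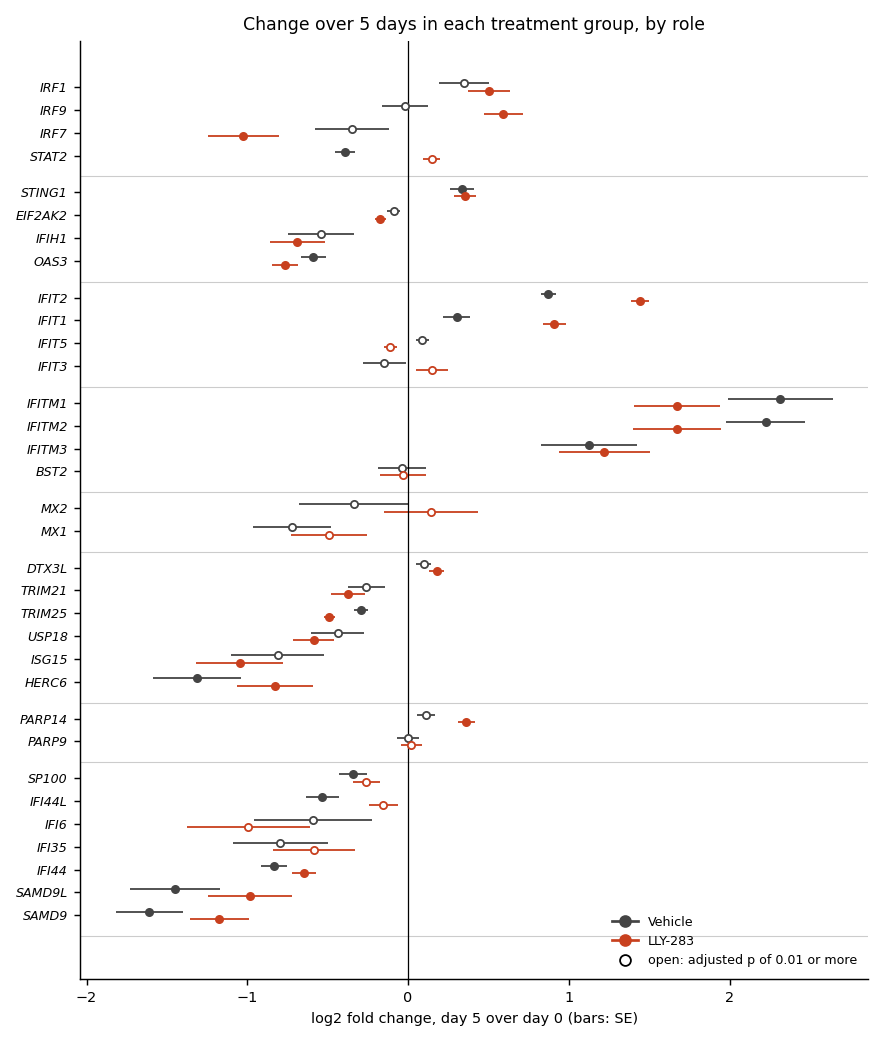
Log2 fold change between day 0 and day 5 for the genes tested in both treatment groups, in order of role (points: estimate; bars: SE; filled: adjusted p under 0.01). The IFITM genes and IFIT2 lie to the right in both groups, SAMD9, SAMD9L and HERC6 to the left, and IFIT1, IFIT2 and STAT2 lie further right with LLY-283 than in vehicle.

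Some of these calls depended on 1 library. In vehicle, SP100 lost its call without day 0 repeat 2 or day 5 repeat 1 or 2 (adjusted p = 0.012 to 0.024), IFITM3 without day 0 repeat 3 or day 5 repeat 1 or 3 (0.011 to 0.016), and IFIT1 without day 0 repeat 1 or day 5 repeat 3 (0.024 to 0.045). With LLY-283, 8 calls did so. They were HERC6 (without day 0 repeat 2 or 3 or day 5 repeat 1 or 2), TRIM21 (day 0 repeat 2 or 3 or day 5 repeat 2 or 3), IRF1 (day 0 repeat 1 or day 5 repeat 3), SAMD9L (day 0 repeat 3 or day 5 repeat 1), ISG15 (day 0 repeat 2 or day 5 repeat 1), IFIH1 and IFITM3 (day 5 repeat 3) and DTX3L (day 5 repeat 1), with adjusted p values by edgeR between 0.010 and 0.034.

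Of the 74 other pathway genes, 51 were tested in vehicle between days 0 and 5, and 10 rose and 16 fell, where 22.2% of all genes rose and 16.7% fell. SOCS3 rose by 1.25 on the log2 scale, SAMHD1, which depletes nucleotides, from 12.7 ± 0.685 to 21.8 ± 0.988 CPM (SD, n = 3), and STAT3 by 0.35, IFNGR2 by 0.38 and PIAS1, an inhibitor of STAT signalling, by 0.29 on the log2 scale. DDX60L, a helicase gene induced by interferon, fell from 15.1 ± 0.102 to 7.95 ± 0.57 CPM, and IKBKE from 19.3 ± 1.87 to 12.2 ± 1.16 CPM. Among 31 other interferon-stimulated genes, 23 were tested, of which 1 rose and 12 fell, beside the same 22.2% and 16.7% of all genes.

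The difference between the treatment groups in their change from day 0 to day 5 was tested directly, as the interaction of treatment with day. It was called for 3 of 36 genes tested, IFIT1, IFIT2 and STAT2, all with the larger value for LLY-283, where 14.9% of 18369 genes were called and 6.78% in that direction. The difference was 0.62 for IFIT1 (SE 0.119, adjusted p = 3.9e-04 by edgeR), 0.58 for IFIT2 (SE 0.074, adjusted p = 1.8e-06) and 0.54 for STAT2 (SE 0.082, adjusted p = 1.5e-05). In the lower direction 0 were called by edgeR (8.15% of all genes). IFIT1 and IFIT2 rose in both treatment groups. STAT2 fell in vehicle, by 0.39 (adjusted p = 6.0e-06 by edgeR), and had a log2 fold change of 0.15 with LLY-283 (adjusted p = 0.028). IRF9 had a difference of 0.62 (SE 0.176) with an adjusted p of 0.0102 by edgeR, just short of the threshold. Its change in vehicle was -0.02. Without LLY-283 day 5 repeat 1, 6 genes were called, beside 15.8% of all genes. In a fit shared with the day 7 libraries 0 of 38 were called by edgeR, where only 0.246% of all 20756 genes were. Of the 38, 8 had an unadjusted p under 0.05 by edgeR (adjusted p = 0.021 for IFIT2 and STAT2, 0.028 for IFIT1). DESeq2 on days 0 and 5 called 4, beside 13.1% of all genes. An edgeR fit shared over days 0 to 5, added after the values were seen, called 4 of 38, beside 13.4% of all genes. Among the other pathway genes, TYK2 showed a difference of 0.35 and IFI16 of 0.28, and RNASEH2C of -0.29, each called.

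Before day 5, with 1 library per group and day, several genes were lower than at the start. Of 20876 genes compared by range alone, 7.57% were lower in all 6 libraries of days 1 to 3 than in all 6 of day 0. Among them were 8 of the 42, namely IFIT1, IFIT5, IFIH1, IFI44, TRIM25, HERC6, ISG15 and SAMD9. IFIT1 lay between 14.4 and 19.0 CPM at day 0, at 8.38 CPM for vehicle and 9.59 CPM under LLY-283 at day 3, and above 20 CPM in every library of day 5. Higher in all 6 were DTX3L, STING1 and IRF9, where 10.5% of all genes were. Over days 1 to 3, with day as a term, the treatment groups differed for 0 of 34 genes tested by edgeR, as for 0% of all 17240 genes, and DESeq2 called 0 of the 34. Vehicle and LLY-283 libraries did not overlap for 0 genes in the higher direction (7.13% of all genes) and for 1, MX1, in the lower (11.8%). At an unadjusted p under 0.05 there were 3, IFITM1, IFIT1 and PARP14, each higher with LLY-283 (adjusted p = 0.21, 0.28 and 0.29 by edgeR).

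The 2 libraries of day 3 differed by more than counting error for 11 of the 33 genes compared, of which 9 were higher and 2 lower with LLY-283. The share of all genes that did so was not computed, so these counts do not set the list apart from other genes. The summed fibroblast markers stood at 281 CPM for vehicle and 371 CPM for LLY-283 at this day, and their part was not tested. IFIT2 was at 34.7 CPM for vehicle and 30.9 CPM under LLY-283 at day 1, at 29.7 and 34.1 CPM at day 2, and at 31.9 and 48.8 CPM at day 3. The log2 ratio at day 3 was 0.61, with a 95% counting interval of 0.46 to 0.77. STAT2 was at 30.4 and 41.9 CPM at day 3, a log2 ratio of 0.46 (0.30 to 0.63), and IFI44L at 6.55 and 11.4 CPM, 0.80 (0.47 to 1.14). The highest ratios were those of the low genes IFITM2, 1.27 (0.63 to 1.91), and SAMD9, 1.21 (0.43 to 2.00). PARP14 stood at 0.38 (0.25 to 0.52), and BST2, PARP9 and EIF2AK2 at 0.46, 0.21 and 0.09 with lower bounds close to 0. USP18, at -0.68 (-1.10 to -0.27), and IFIT5, at -0.17 (-0.29 to -0.05), went the other way. IFIT1 at day 3 was at 8.38 and 9.59 CPM, 0.19 (-0.13 to 0.52), and IRF9 at 7.53 and 7.87 CPM, 0.07 (-0.28 to 0.41). These intervals hold no spread between repeats, which 1 library cannot give.

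**Figure D4:**
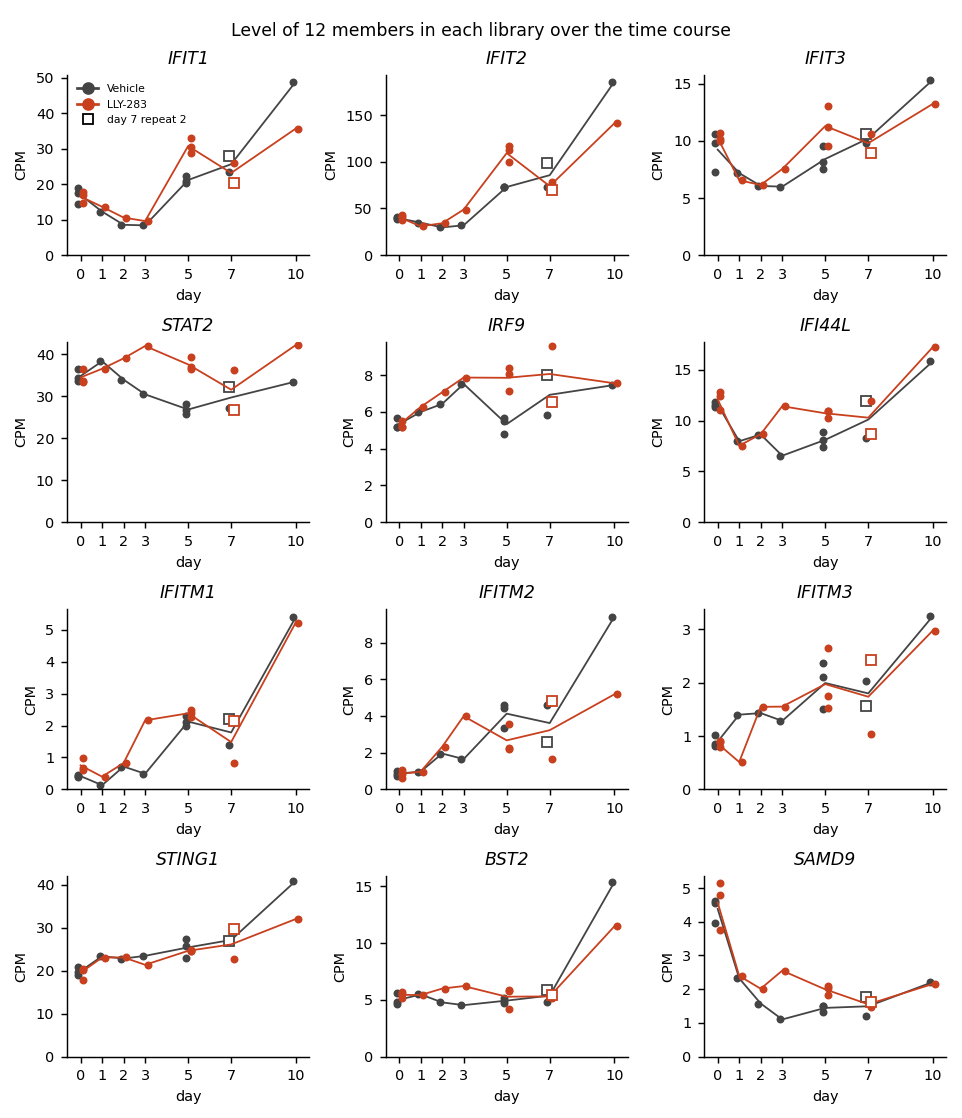
Level in CPM of 12 genes in each library against the day (lines: mean of a treatment group; open squares: day 7 libraries labelled repeat 2). IFIT1 is lowest at days 2 and 3, IFIT1 and IFIT2 are highest at day 10, STAT2 separates by treatment at days 3 and 5, and at day 7 the squares swap sides for IFIT1, IFIT2, STAT2, IRF9 and IFI44L.

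At day 7 no gene of the list was called, and the repeats disagreed. Of 33 tested, 0 were called by edgeR, as were 0% of all 16826 genes, with 0 of the 33 at an unadjusted p under 0.05 and 0 by DESeq2. The labelled groups did not overlap for 5 genes in the higher direction (11.8% of all genes) and 1 in the lower (13.9%). Repeat 1 showed the direction of day 5 for all 9 genes called at day 5, and repeat 2 for 3 of the 9. IFIT2 was at 72.9 CPM for vehicle and 78.3 CPM under LLY-283 in repeat 1, and at 98.3 and 69.4 CPM in the libraries labelled repeat 2. STAT2 was at 27.3 and 36.3 CPM in repeat 1 and at 32.0 and 26.7 CPM in those labelled repeat 2, and IRF9 at 5.83 and 9.59 CPM and at 8.04 and 6.55 CPM. IFITM2, with 4.62 and 1.64 CPM in repeat 1 and 2.61 and 4.81 CPM in those labelled repeat 2, also turned. Over the 33 genes, 22 had opposite signs in repeat 1 and repeat 2. These direction counts were not computed over all genes, so they do not set the list apart from other genes. Why these repeats differed was not tested.

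At day 10 there was 1 library per treatment group and no test. Of the 20876 genes that passed the filter on low counts, 4.99% were higher in both libraries than in all 22 libraries of days 0 to 7. Among these were 11 genes of the list. They were IFIT1, IFIT2, IFIT3, IFITM1, IFITM2, IFITM3, BST2, IFIH1, IFI44L, PARP14 and STING1. None of the list's genes compared was lower in both than in all earlier libraries, where 3.86% of all genes were. IFIT2 stood at 186 CPM for vehicle and 141 CPM under LLY-283, and IFIT1 at 48.9 and 35.7 CPM. BST2, which had stayed between 4.20 and 6.21 CPM until day 7, stood at 15.4 CPM for vehicle and 11.46 CPM under LLY-283. At this day IFIT1 and IFIT2 were higher in vehicle, with log2 ratios of LLY-283 over vehicle of -0.46 (95% counting interval -0.60 to -0.31) and -0.40 (-0.47 to -0.32), the opposite of day 5. STAT2 kept the direction of day 5, at 33.5 CPM for vehicle and 42.1 CPM under LLY-283 (0.33, counting interval 0.17 to 0.49), and IRF9 was at 7.47 and 7.56 CPM. SAMD9, TRIM25 and OAS3 were at 2.21, 115 and 15.1 CPM in vehicle, below their lowest day 0 libraries. PECAM1, an endothelial marker, was at 24.96 CPM for vehicle and 11.7 CPM for LLY-283 at this day, above its 9.01 CPM maximum until day 7, and its part in these values was not tested.

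**Figure D5:**
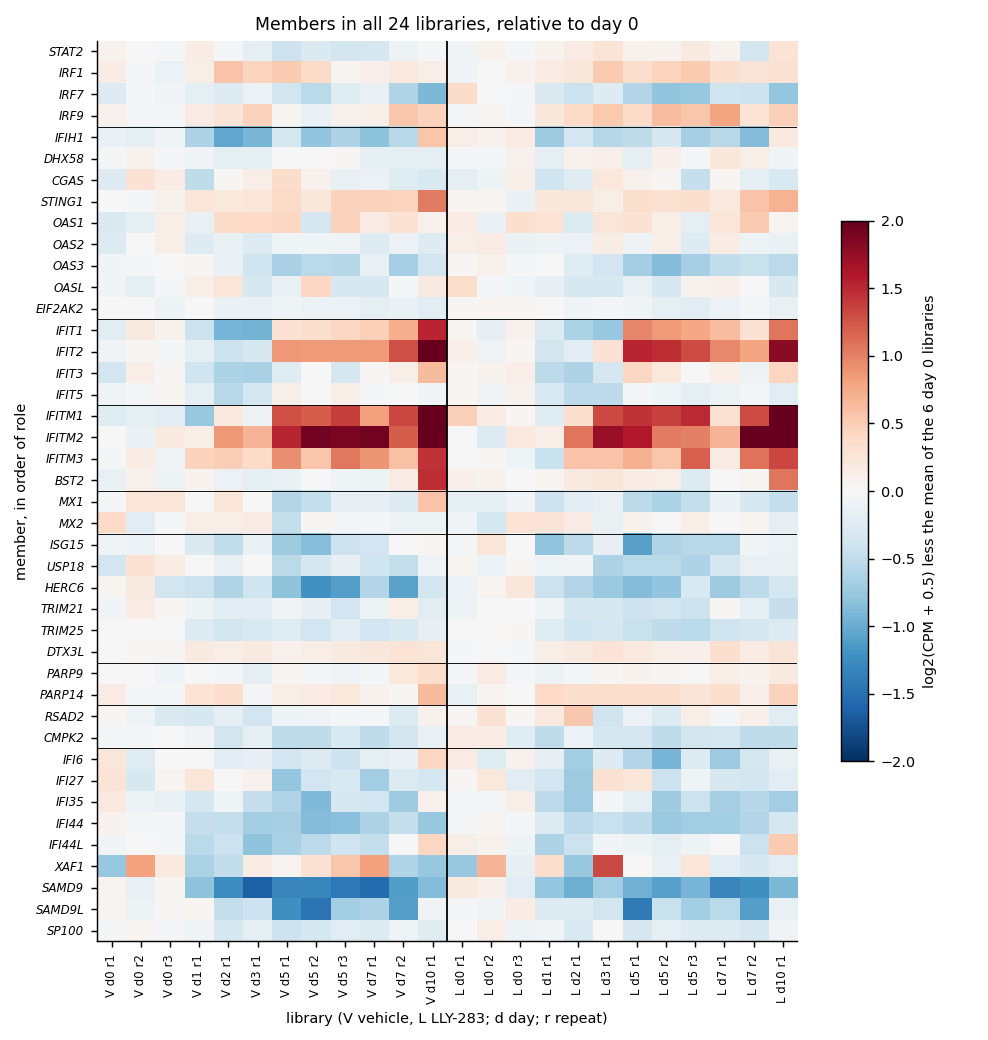
Level of the 42 genes in the 24 libraries as log2(CPM + 0.5) less the mean of the 6 day 0 libraries, in order of role, with colours limited to 2 in either direction. By day 5 the IFITM genes and IFIT2 are red in both treatment groups, and SAMD9, HERC6 and IFI44 are blue.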

How the data were processed

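RNA of HSJD-DIPG-007 cells was sequenced from a directional poly(A) library. Per the submitters' notes the authors quantified it with kallisto on hg38, and they deposited estimated counts per gene, in whole numbers and not normalized. Kallisto's version and whether strand was used are not given in the sources used here. The 24 columns were used as deposited, with totals of 13835205 to 23190369. All 42 symbols were matched to GENCODE v44 identifiers, on the same build.

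The members and lists were chosen with earlier results of these data known. Differential expression was tested over all genes with edgeR 4.0.16 in R 4.3.3 (TMM scaling; low counts removed by filterByExpr on the groups compared; robust quasi-likelihood F tests). Genes were called at a Benjamini-Hochberg adjusted p under 0.01. Each test used the libraries of its own groups, days 1 to 3 with day as a term, and the interaction the 12 libraries of days 0 and 5. DESeq2, which the authors used, was an alternative, here in version 1.42.0. The other alternatives changed the scaling (size factors of DESeq2, or totals only), the filter (none, or 10 counts as the minimum in each library), the threshold (0.05) or the fit (a replicate block, no day term, shared fits, each library left out in turn). A lone library was taken to vary as its counterparts do. A fit shared over days 0 to 5 and a crossed pairing at day 7 were added after the values were seen. Each test was also run on simulated counts, drawn with the same spread for every gene. That simulation holds no added difference between repeats, so it does not cover repeats that differ as those of day 7 do. Repeats of a group differed by more than sampling noise, so none was counted as a duplicate.

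Genes of the list were named by rule. These were, in each comparison, those with an adjusted p under 0.01 in order of absolute change, up to 25, the 6 of highest and 6 of lowest level per kilobase, and of the other pathway genes the 10 of smallest p at day 5 or over time in vehicle. Ligands, receptors and other genes named besides, and the 12 in the time course plot, were chosen after their values were seen. Shared 31-base words were counted on GENCODE transcripts. 1 other pathway gene is not reported here.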

Additional observations from a re-analysis of the deposited data

Results flagged for a closer look

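The change from day 0 to day 5 differed between LLY-283 and vehicle for 3 of 36 genes tested, by the interaction test of edgeR over all genes. Of all 18369 genes, 14.9% were called, 6.78% in the higher direction as these 3 were, so the count does not set the list apart. The difference, as LLY-283 less vehicle on the log2 scale, was 0.62 for IFIT1, 0.58 for IFIT2 and 0.54 for STAT2. In each case all 3 LLY-283 libraries of day 5 lay above all 3 vehicle libraries of that day, as for 20.8% of all genes, while the groups overlapped at day 0. Groups held at most 3 libraries, so no single library could be tested as lying far from its group.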

How the results depend on the processing

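No called gene changed direction in any of 752 alternative values over 4 comparisons, and 73 of these lost the call. These values come from the same or nearly the same libraries, for genes already called, so they are not independent checks. Those at the threshold of 0.05 came from the main fit and could lose no call and change no direction. At day 5, 9 genes were called (26.1% of all genes). DESeq2 called 5 (20.01%), and a fit shared over days 0 to 7 called 4 (9.84%). The fit shared over days 0 to 5, added after the values were seen, called 7 (20.4%). Leaving out 1 library gave 5 to 8 (18.96% to 26.1%). For the interaction, where 3 were called, there were 5 with at least 10 counts in every library (20.9% of all genes) and 8 at an adjusted p under 0.05 (24.2%). There were 0 in the fit shared over days 0 to 7 (0.246%), 4 in that shared over days 0 to 5 (13.4%), and 3 to 6 with 1 library left out (11.2% to 15.8%). In vehicle over time 15 were called in the main test. With 1 library left out there were 13 to 16 (31.7% to 35.8% of all genes), and 12 to 20 otherwise (17.7% to 50.3%). With LLY-283 the main test called 22, and these counts were 18 to 21 (35.3% to 39.8%) and 17 to 26 (19.2% to 52.1%). The counts of 0 at day 0, days 1 to 3 and day 7 stayed at 0 under every alternative run. The causes were not tested. Repeat numbers did not pair the libraries of days 0 and 5, since the correlations of same-numbered deviations lay between -0.0951 and 0.097. With a replicate block 9, 15, 23, 3 and 0 genes were called at day 5, in vehicle, with LLY-283, for the interaction and at day 0. Of all genes, 26.7%, 37.9%, 45.7%, 13.3% and 0.0337% were called. At day 7 the correlation was -0.22, and the replicate block and the crossed pairing each called 0 of the list, and 0 and 36 of all 16826 genes. Depth limits the lowest genes, of which 6 could not be tested in any comparison. Tests on technical repeats do not cover the spread between cultures.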
